A study of Homo sapiens with 12 samples.

Results

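Genes that carry, cut or guard the insulin-like growth factors (IGFs) were followed in senescent lung fibroblasts, 10 in all: the binding proteins IGFBP2, IGFBP3, IGFBP4, IGFBP5, IGFBP6 and IGFBP7, the pappalysins PAPPA and PAPPA2, and the stanniocalcins STC1 and STC2. They were taken by gene symbol from the 16383 genes in the deposited table, and PAPPA2 was included because its transcript rose with palbociclib. The values of PAPPA2 in the palbociclib group are therefore described and not tested. Its DMSO values had a part in that choice too. This limits the tests of PAPPA2 that use the DMSO group and the counts of genes that include them. RNA was captured by its poly(A) tail and sequenced from IMR90, an established human lung fibroblast line of wild-type genotype. The 12 libraries formed 4 groups of 3. Proliferating cells (Prolif) were labelled as receiving no treatment. Irradiated, senescent cells had been given 20 Gy within 10 min and were collected on day 11. They had received DMSO (Sen_DMSO), 2 µM palbociclib (Sen_Palbo), a CDK4 and CDK6 kinase inhibitor that holds cells before S phase, or 2 µM ruxolitinib (Sen_Ruxo), which inhibits the Janus kinases JAK1 and JAK2. The inhibitors were added 4 times, from day 4 to day 10 in steps of 2 days. All groups come from 1 cell line, and the proliferating group is not described as having received DMSO, so irradiation, time in culture and vehicle cannot be told apart in comparisons with it. No group of unirradiated cells given an inhibitor was analysed here.

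IGF1 and IGF2 are small secreted growth factors that act through the receptor IGF1R. Outside the cell most of the factor is held by IGF binding proteins, which keep it from the receptor until they are degraded. PAPPA is a secreted metalloproteinase that cleaves IGFBP4 and IGFBP5, PAPPA2 is its paralog and cleaves IGFBP3 and IGFBP5, and cleavage releases the factor. STC1 and STC2 are secreted glycoproteins that bind the pappalysins and block them. Several of these proteins belong to the secretions of senescent fibroblasts. Only transcripts were measured here, neither secreted protein nor cleavage.

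The starts of 3 of these genes are shown. IGFBP3 had the highest transcript level per kilobase of the 10 genes with palbociclib. PAPPA was lower with palbociclib than with DMSO, and its paralog PAPPA2 was chosen for being higher. Each sequence is the 250 bases before the RefSeq start, written 5′ to 3′ on the gene's own strand from the RefSeq promoter table of build GRCh38.p14. Capitals mark matches, on either strand, to the 7 motifs searched. RefSeq windows were at hand for 8 of the 10 genes. Gene spans given below come from GENCODE, and that of IGFBP3 starts further upstream, at 45921874 on the minus strand. The IGFBP3 window therefore lies inside that span.
IGFBP3 (chr7:45921273-45921522, minus strand): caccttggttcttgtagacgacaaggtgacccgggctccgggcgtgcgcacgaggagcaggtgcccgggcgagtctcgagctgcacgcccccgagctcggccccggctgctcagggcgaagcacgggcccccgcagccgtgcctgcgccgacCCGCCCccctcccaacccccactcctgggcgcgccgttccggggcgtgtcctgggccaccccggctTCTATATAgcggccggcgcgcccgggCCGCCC
PAPPA (chr9:116153541-116153790, plus strand): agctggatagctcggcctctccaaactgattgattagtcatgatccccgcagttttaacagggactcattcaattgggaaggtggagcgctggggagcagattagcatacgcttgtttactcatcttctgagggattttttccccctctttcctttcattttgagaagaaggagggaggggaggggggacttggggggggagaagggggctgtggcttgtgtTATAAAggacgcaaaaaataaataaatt
PAPPA2 (chr1:176462925-176463174, plus strand): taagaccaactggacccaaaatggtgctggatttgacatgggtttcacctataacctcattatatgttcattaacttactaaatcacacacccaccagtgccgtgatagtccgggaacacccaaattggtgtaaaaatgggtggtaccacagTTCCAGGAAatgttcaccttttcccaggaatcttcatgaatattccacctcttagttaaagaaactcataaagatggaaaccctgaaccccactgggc
These 3 windows differ in base composition. The IGFBP3 window is 76.0% G or C, the PAPPA window 48.0% and the PAPPA2 window 42.8%, against a median of 58.0% over 34943 windows of the same length. In the IGFBP3 window, capitals mark overlapping matches to TATANA from 32 bases before the start and 2 matches to GGGCGG, read on the other strand as CCGCCC, at 98 and 6 bases before it. The PAPPA window holds TATAAA, a match to TATANA, 28 bases before the start. The PAPPA2 window has neither, and its capitals mark TTCCAGGAA, a match to TTCNNNGAA, 98 bases before the start. TATANA, the letters of a TATA box, occurs in 17.72% of all windows and in 3 of the 8 windows searched (IGFBP3, IGFBP4 and PAPPA). GGGCGG, the Sp1 box, occurs in 42.55% of all windows and in 4 of the 8 (IGFBP2, IGFBP3, IGFBP4 and IGFBP6). TTCNNNGAA, the letters of a STAT site, occurs in 6.56% of all windows and in PAPPA2 alone among the 8. No match to TGANTCA (AP-1, 6.59% of all windows), TGATGNAA (amino acid response element, 3.15%), TTTC, any 2 bases and TTTC (interferon-stimulated response element, 3.02%) or TTTCGCGC (E2F, 0.43%) was found in the 8. A match describes the letters only.

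Values below are normalized read counts, which are gene read counts over a scaling factor of each library. Over the listed genes the libraries held 14106799 to 21762412 reads. Differences are given as log2(normalized count + 1), tested with limma over the 11242 genes with a mean of at least 10, and called at a Benjamini-Hochberg adjusted p under 0.05. All 10 genes passed that filter on their mean over all libraries. The labels do not say whether the 3 samples of a group came from separate cultures, so p-values measure only the spread between these samples. The labels were checked on 3 genes: MKI67, a proliferation marker, averaged 13062 in proliferating cells but 1011 with DMSO, 82.5 with palbociclib and 700.2 with ruxolitinib, LMNB1 averaged 3911, 153.1, 31.5 and 128.8 in the same order, and CDKN1A averaged 3389, 29150, 14779 and 31744. All 10 fibroblast markers were detected, and their sum differed between groups, with 822420 to 854897 in proliferating cells, 408919 to 419590 with DMSO, 651681 to 683887 with palbociclib and 515852 to 520021 with ruxolitinib. The epithelial, endothelial and leukocyte marker lists, each summed on its own, reached at most 50.4 per library. At these low levels CD14, a monocyte marker, averaged 4.03, 28.2, 13.0 and 16.0 and VWF, an endothelial marker, 5.04, 19.1, 21.2 and 26.0 in proliferating, DMSO, palbociclib and ruxolitinib cells, and both were called higher with DMSO than in proliferating cells. CDH1, an epithelial marker, was at 0 in proliferating cells and averaged 3.60, 14.0 and 1.12 in the other groups. EPCAM, also epithelial, averaged 22.3, 32.3, 20.6 and 23.8 in the same order of all groups. PECAM1, also endothelial, averaged 2.07, 10.7, 5.45 and 12.9. With palbociclib EPCAM and PECAM1 were thus lower than with DMSO, while CDH1 and VWF were not. KRT5, SFTPC, CDH5, PTPRC and CD3E averaged at most 4.47 in any group. The part of these markers in the results was not tested. Libraries A120 (palbociclib) and A126 (proliferating) stood apart from the others of their groups, with genes of the highest quartile of exon length lower by 0.32 and 0.24 on the log2 scale relative to the lowest quartile, while A119 was shifted the other way by 0.26. The part of this shift in single values was not tested. Differences without A120 and A126 are given where leaving them out changes a call, and for some, not all, other values that moved. Because the RNA is from bulk cultures, a lower value can stem from fewer cells of a kind or from less RNA per cell, and these cannot be told apart.

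**Figure D1:**
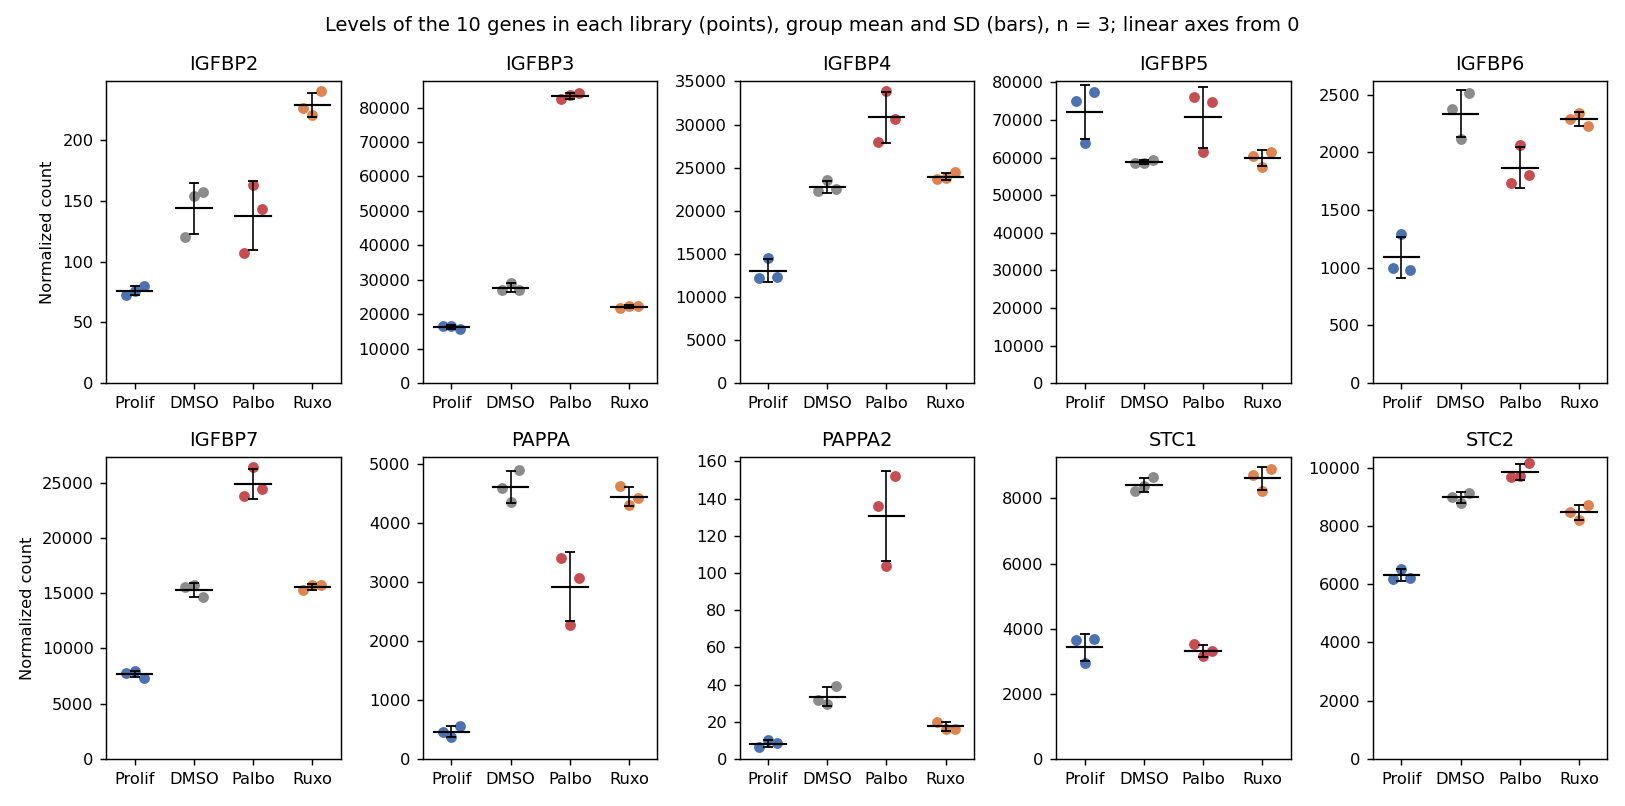
Normalized count of each of the 10 genes (linear axes from 0) in the 3 libraries of each group: points are libraries, horizontal lines are group means and error bars are SD. IGFBP3 and PAPPA2, the latter chosen for its rise with palbociclib, stand highest in the 3 palbociclib libraries. STC1 reaches at most 3521.3 with palbociclib and at least 8215.5 with DMSO and ruxolitinib.

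Irradiated DMSO cells differed from proliferating cells in all 10 genes: 9 rose and 1, IGFBP5, fell. PAPPA, the protease of IGFBP4 and IGFBP5, rose 9.99-fold, the largest change of the 10. Of all tested genes, 72.4% were called in this comparison, 33.0% higher and 39.3% lower, so a call alone says little about these genes. The libraries of both groups did not overlap in any of the 10, against 75.1% of all tested genes. At least 2-fold changes were called for 4 of the 10 (IGFBP6, PAPPA, PAPPA2 and STC1), against 20.0% of all tested genes. The median log2 difference of the 10 genes was 0.95, against -0.05 over all genes tested.

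PAPPA was low in proliferating cells, at 456.5, 376.0 and 552.3 normalized counts in A125, A126 and A127. In senescent DMSO cells it reached 4591.9, 4349.4 and 4893.6 in A116, A117 and A118. The groups lie far apart and do not overlap. The log2 difference was 3.33 (SE 0.13, limma adjusted p = 4.09e-12), and 1.34% of tested genes had a larger change in size. The gene spans chr9:116153791-116402321 on the plus strand of hg38. Its paralog PAPPA2 (chr1:176463171-176845601, plus strand) was scarce, with 6.23, 9.98 and 8.57 in proliferating cells, which rest on only 6 to 9 reads per library, and 31.7, 29.6 and 39.3 with DMSO, on 25 to 34 reads. Every DMSO library lay above every proliferating one. PAPPA2 rose by 1.91 on the log2 scale (SE 0.23, adjusted p = 2.14e-06), a test in which DMSO values that had a part in its choice are used.

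Both stanniocalcins rose too. STC1 stood at 3658.6, 2957.8 and 3679.5 in proliferating cells and at 8220.6, 8392.1 and 8641.2 with DMSO. STC2 stood at 6184.2, 6532.2 and 6225.8 in proliferating cells and at 9001.6, 8788.7 and 9137.3 with DMSO. Neither gene's groups overlapped, and the rise was 2.45-fold for STC1 (log2 1.30, SE 0.07, adjusted p = 2.57e-10) and 1.42-fold for STC2 (log2 0.51, SE 0.05, adjusted p = 6.48e-08). A test of the difference between these rises was not run.

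Among the carriers, IGFBP6, which prefers IGF2 as its ligand, rose 2.14-fold to 2333.3 ± 203.7 (SD, n = 3). IGFBP7, a low-affinity IGF binder, rose 1.99-fold to 15298.5 ± 601.9, IGFBP2 1.89-fold to 143.6 ± 20.7, IGFBP4 1.75-fold to 22761.7 ± 673.8 and IGFBP3 1.70-fold to 27740.9 ± 1219.2 (limma adjusted p between 1.15e-10 and 4.52e-05 for these 5). In each of these 5 the 3 DMSO libraries lay above the 3 proliferating ones. IGFBP5, a carrier that binds extracellular matrix, went the other way, with 75108.6, 64026.9 and 77355.5 in proliferating cells and 58637.9, 58639.4 and 59439.6 with DMSO. Its groups did not overlap, although A126 lay much nearer to the DMSO libraries than A125 and A127 did. The decrease of 0.29 on the log2 scale (SE 0.08, adjusted p = 0.00532) depended on the scaling of the libraries. When all libraries were scaled to the same total, IGFBP5 differed by -0.06 (adjusted p = 0.509), a scaling that shifts the median of all tested genes in this comparison by 0.227 (log2).

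**Figure D2:**
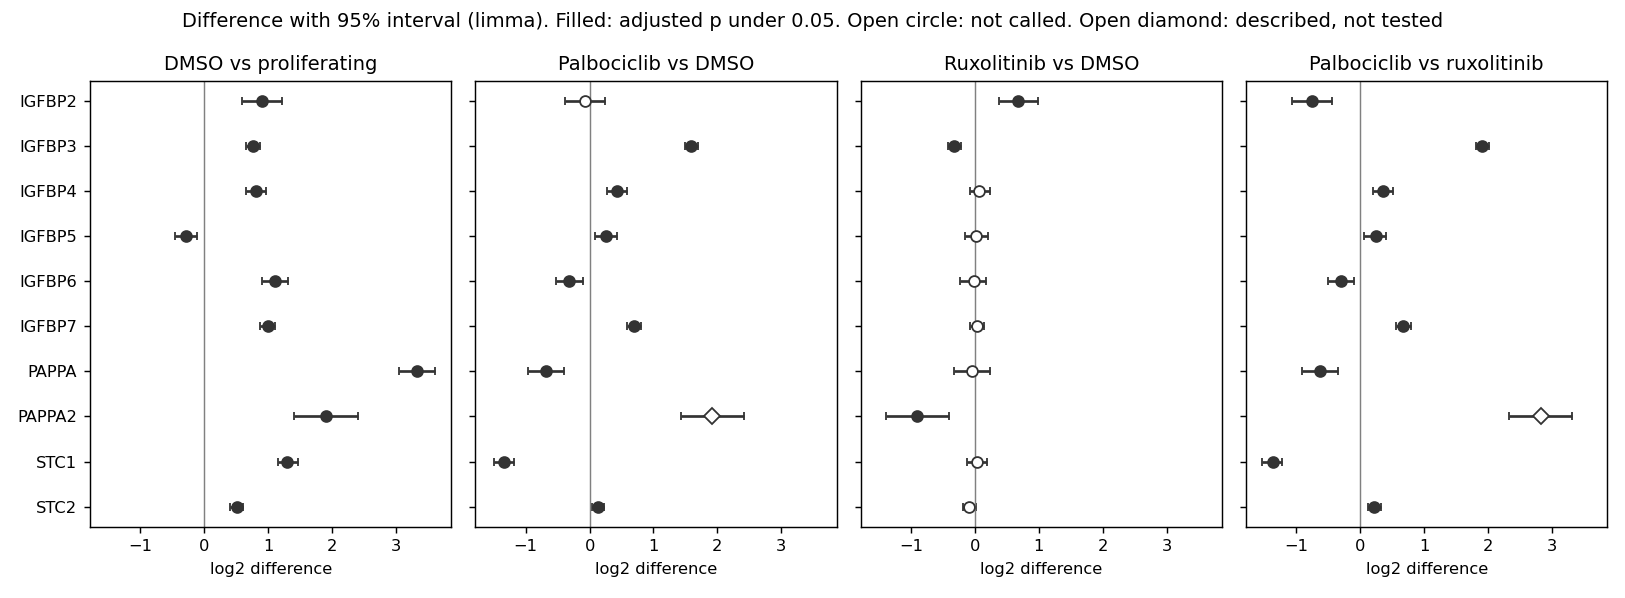
Log2 difference with its 95% interval from limma for the 10 genes in 4 comparisons: filled circles are called at an adjusted p under 0.05, open circles are not called, and open diamonds mark PAPPA2 where it was described and not tested. All 10 intervals exclude 0 for DMSO against proliferating cells, and 7 of 10 genes were not called for ruxolitinib against DMSO.

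Palbociclib shifted the set in both directions relative to irradiated DMSO cells. IGFBP3, IGFBP7, IGFBP4, IGFBP5 and STC2 rose, STC1, PAPPA and IGFBP6 fell, and IGFBP2 was not called. That is 8 of the 9 genes tested, where 48.3% of all tested genes were called (26.0% higher and 22.3% lower). IGFBP3 and STC1 changed at least 2-fold, 2 of 9, against 6.00% of all tested genes. Libraries did not overlap in 8 of the 9, against 54.8% of all tested genes. The median log2 difference of the 9 was 0.13, against 0.02 over all genes tested.

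IGFBP3, the main carrier of IGFs in blood (chr7:45912245-45921874, minus strand, hg38), had 27146.3, 29143.3 and 26933.1 normalized counts with DMSO and 82527.9, 83613.0 and 84153.6 with palbociclib. The 3 palbociclib libraries lay close together, with a coefficient of variation of 1.0%, and far above the DMSO libraries. The ratio of means was 3.01, and the log2 difference was 1.59 (SE 0.05, 95% interval 1.49 to 1.69, adjusted p = 1.7e-12). Over 16 alternatives of filter, scaling, tool or libraries left out, the difference ranged from 1.36 to 1.63 and stayed called. It was 1.59 without A120 and A126. Against proliferating cells, where IGFBP3 stood at 16516.7, 16630.0 and 15745.3, the palbociclib level was 5.12-fold higher (adjusted p = 1.15e-15).

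IGFBP7 and IGFBP4 rose as well. IGFBP7 had 15526.6, 15753.1 and 14615.9 with DMSO and 23840.4, 26405.6 and 24455.1 with palbociclib, a 1.63-fold rise (log2 0.70, SE 0.05, adjusted p = 4.26e-08). IGFBP4 had 22275.3, 23530.8 and 22478.9 with DMSO and 27979.3, 33929.3 and 30583.4 with palbociclib, a 1.35-fold rise (log2 0.43, SE 0.07, adjusted p = 0.000188). In both genes all palbociclib libraries lay above all DMSO libraries, and A120 was the highest. IGFBP5 had 76065.1, 61436.1 and 74899.5 with palbociclib, above the 3 DMSO libraries but with A120 close to them. Its rise of 0.26 (SE 0.08, adjusted p = 0.0173), 0.36 without A120 and A126 (adjusted p = 2.06e-07), was not called when libraries were scaled to the same total (0.03, adjusted p = 0.746), nor without A119 (0.20, adjusted p = 0.061) or A121 (0.21, adjusted p = 0.0788).

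IGFBP6 fell from 2371.6, 2113.1 and 2515.0 with DMSO to 1734.1, 2067.8 and 1803.2 with palbociclib. The groups did not overlap, but A120 came close to A117. The decrease was 0.32 on the log2 scale (SE 0.10, adjusted p = 0.013), and it was not called without A118 (-0.26, adjusted p = 0.0653). IGFBP2, the least abundant of the 6 carriers, had 119.8, 153.9 and 157.3 with DMSO and 107.3, 163.1 and 143.0 with palbociclib. These ranges overlap, and the difference of -0.07 had a 95% interval of -0.38 to 0.24 (adjusted p = 0.715). This difference was -0.20 without A120 and A126 (adjusted p = 0.258).

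The pappalysins parted. PAPPA, at 4591.9, 4349.4 and 4893.6 with DMSO, stood at 3411.8, 2274.7 and 3069.9 with palbociclib. Every palbociclib library lay below every DMSO library, with A120 the lowest. PAPPA fell by 0.68 on the log2 scale (SE 0.13, adjusted p = 0.000621), by 0.51 without A120 and A126 (adjusted p = 8.29e-07) and by 0.91 with libraries scaled to the same total (adjusted p = 3.05e-05). Against proliferating cells it was still 6.32-fold higher (adjusted p = 4.54e-11). PAPPA2, the gene chosen for its rise with palbociclib, had 136.1, 104.0 and 151.9 with palbociclib, on 95 to 171 reads per library. With DMSO this gene had 31.7, 29.6 and 39.3. Its ratio of means was 3.90 and its log2 difference 1.92 (SE 0.23), given as a description. It remained a rare transcript, at 12 ± 2.23 normalized counts per kilobase against 251.9 ± 50.4 for PAPPA (SD, n = 3).

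The stanniocalcins parted as well. STC1, at 8220.6, 8392.1 and 8641.2 with DMSO, stood at 3521.3, 3157.0 and 3303.5 with palbociclib. No library of either group came near the other group. STC1 fell by 1.34 on the log2 scale (SE 0.07, adjusted p = 1.3e-09), to 0.395 of the DMSO level. The palbociclib libraries overlapped the proliferating ones (3658.6, 2957.8 and 3679.5), and the difference from these was -0.04 (95% interval -0.19 to 0.12, adjusted p = 0.643). Without A126 it was -0.14 (adjusted p = 0.0305), and without A120 and A126 -0.11 (adjusted p = 0.0527). STC2 had 9669.8, 9716.3 and 10172.5 with palbociclib, above all 3 DMSO libraries. Its rise of 0.13 (SE 0.05, adjusted p = 0.0238) turned to -0.09 (adjusted p = 0.112) with libraries scaled to the same total, and it was not called by edgeR (0.12, adjusted p = 0.0527) or without A116, A117 or A121 (adjusted p between 0.0567 and 0.0938).

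**Figure D3:**
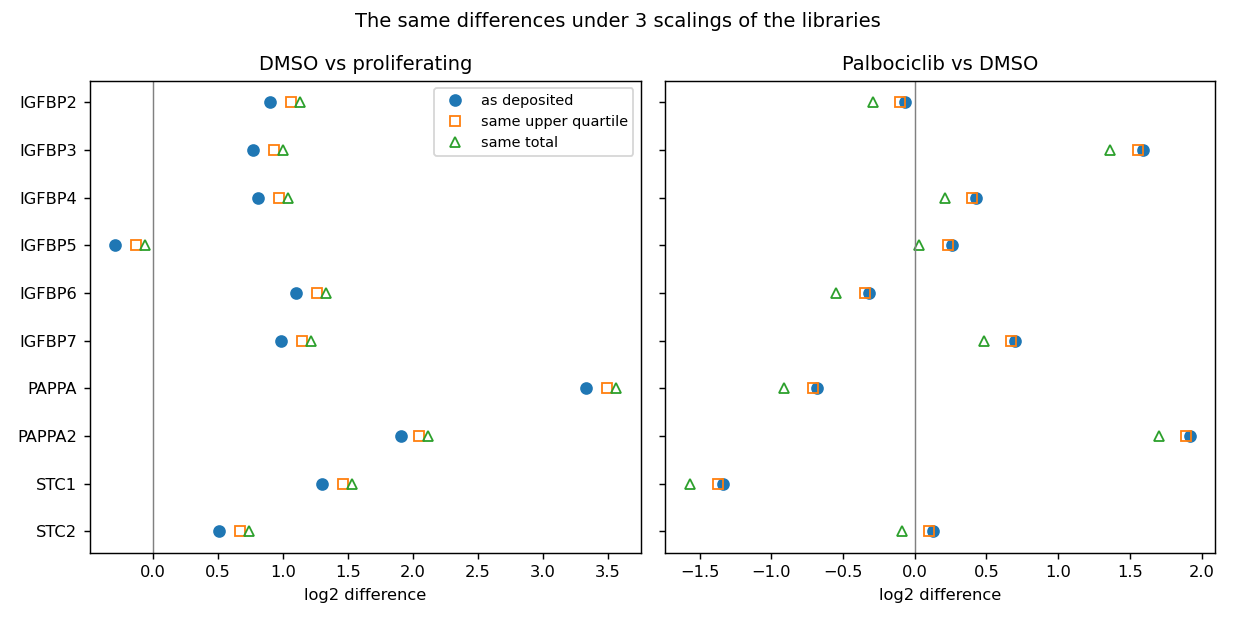
Log2 difference of the 10 genes (horizontal axis) for DMSO against proliferating cells and palbociclib against DMSO, with the values as deposited (filled circles), scaled to the same upper quartile (squares) and scaled to the same total (triangles). With the same total, all values move right in the first panel and left in the second, and only STC2 in the second panel crosses 0, to -0.09.

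Scaling to the same total moved the median of all tested genes by -0.225 (log2) for palbociclib against DMSO, where the summed normalized counts were 19369896 ± 68983 with palbociclib and 16554893 ± 192963 with DMSO (SD, n = 3). Scaling to the same upper quartile moved it by -0.03. IGFBP3, IGFBP4, IGFBP6, IGFBP7, PAPPA and STC1 kept their direction and their call in this comparison under both scalings.

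With ruxolitinib, IGFBP2 rose and IGFBP3 and PAPPA2 fell relative to DMSO. That is 3 of 10 genes where 4.52% of all tested genes were called (1.10% higher and 3.42% lower). Libraries did not overlap in 5 of the 10, these 3 with IGFBP4 and STC2, against 31.9% of all tested genes. Median log2 differences were 0 for the 10 genes and 0 over all genes tested. IGFBP2 had 226.1, 220.6 and 240.0 with ruxolitinib, above the DMSO libraries (119.8, 153.9 and 157.3). IGFBP2 rose 1.59-fold (log2 0.68, SE 0.15, adjusted p = 0.0133), and it was not called without A116 (0.55, adjusted p = 0.0793), A122 (0.69, adjusted p = 0.0547) or A124 (0.64, adjusted p = 0.0694). Its ruxolitinib level was the highest of the 4 groups and 3.01-fold above proliferating cells (adjusted p = 9.09e-08).

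IGFBP3 had 21807.3, 22448.6 and 22406.8 with ruxolitinib, below every DMSO library. It fell by 0.32 on the log2 scale (SE 0.05, adjusted p = 0.000701), and this call held in all 15 other fits, with values from -0.34 to -0.28. PAPPA2 had 20.1, 16.2 and 16.2, on 18 to 26 reads, again below every DMSO library. PAPPA2 fell by 0.90 (SE 0.23, adjusted p = 0.0385), a call that was lost when any 1 of the 6 libraries was left out (adjusted p between 0.0739 and 0.174) and with no filter on low genes (0.0707). The DMSO values of PAPPA2 used here had a part in its choice. For the other 7 genes the differences lay between -0.09 (STC2, 95% interval -0.18 to 0.01) and 0.07 (IGFBP4, -0.08 to 0.23). PAPPA had 4616.2, 4296.9 and 4422.3 and STC1 8724.0, 8215.5 and 8912.4 with ruxolitinib, both overlapping DMSO. The intervals of these 2 differences were -0.33 to 0.23 for PAPPA and -0.12 to 0.19 for STC1.

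The inhibitors, at the same dose and days, were also compared with each other. All 9 genes tested were called, where 40.4% of all tested genes were (22.8% higher and 17.6% lower with palbociclib). At least 2-fold differences were called for 2 of the 9, against 4.71% of all tested genes. IGFBP3 was 3.75-fold higher with palbociclib than with ruxolitinib (log2 1.91, SE 0.05, adjusted p = 4.5e-13), and STC1 stood at 0.386 of the ruxolitinib level (log2 -1.37, SE 0.07, adjusted p = 1.59e-09). IGFBP7, IGFBP4, IGFBP5 and STC2 were higher with palbociclib as well, by 0.67, 0.36, 0.24 and 0.22. IGFBP2, PAPPA and IGFBP6 were lower, by 0.75, 0.63 and 0.30 in size. The IGFBP5 call was lost when A119, A121, A122, A123 or A124 was left out (adjusted p between 0.0566 and 0.127), and the IGFBP6 call when A119, A121, A122 or A123 was (0.062 to 0.0758). Scaled to the same total, the differences of IGFBP4 (0.16), IGFBP5 (0.03) and STC2 (0.02) were no longer called. Libraries did not overlap in 8 of the 9 genes, against 51.8% of all tested genes, and the exception was IGFBP5. PAPPA2, described only, was 7.47 times as abundant with palbociclib as with ruxolitinib.

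Against proliferating cells, 7 of 9 genes were higher with palbociclib, where 73.8% of all tested genes were called (35.2% higher and 38.6% lower), and IGFBP5 (-0.03, 95% interval -0.20 to 0.15) and STC1 were not called. With ruxolitinib all 10 were called, 9 higher and IGFBP5 lower, where 72.2% of all tested genes were called (32.6% higher and 39.5% lower). Differences called and of at least 2-fold numbered 4 of 9 with palbociclib and 6 of 10 with ruxolitinib, against 21.9% and 20.5% of all tested genes. Libraries did not overlap in 7 of 9 genes for palbociclib and in 10 of 10 for ruxolitinib, against 70.9% and 76.2% of all tested genes. The IGFBP5 difference with ruxolitinib (-0.27, adjusted p = 0.009) was not called under scaling to the same total (-0.06, adjusted p = 0.494) or the same upper quartile (-0.09, adjusted p = 0.323). These comparisons share the proliferating libraries with the first one.

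Levels of different genes were compared per kilobase of exons, with the union of all annotated exons as the length. The order of genes and the shares below depend on that length, and no other length was tried. In proliferating cells IGFBP5 led, at 11161 ± 1104 normalized counts per kilobase (SD, n = 3), ahead of IGFBP4 at 5908 ± 599, IGFBP7 at 3986 ± 157 and IGFBP3 at 3567 ± 105. STC2 followed at 1247 ± 37.6, STC1 and IGFBP6 overlapped at 830.2 ± 99.4 and 811.7 ± 131.4, and PAPPA, IGFBP2 and PAPPA2 came last at 39.8, 16.0 and 0.76. In senescent DMSO cells IGFBP4 came first, at 10323 ± 306, then IGFBP5 at 9110 ± 71.5 and IGFBP7 at 7927 ± 312, and the same 3 genes led with ruxolitinib. With palbociclib IGFBP3 came first, at 18260 ± 181, and IGFBP4 (13982 ± 1353) and IGFBP7 (12902 ± 694) overlapped behind it. IGFBP5 came after them there, at 10950 ± 1257. STC1 stood above STC2 per kilobase with DMSO and ruxolitinib, and below it with palbociclib and in proliferating cells.

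Summed over IGFBP2 to IGFBP7, the carriers came to 25450 ± 176 normalized counts per kilobase in proliferating cells and to 35190 ± 604, 57510 ± 1180 and 34820 ± 485 in the DMSO, palbociclib and ruxolitinib groups. In the order proliferating, DMSO, palbociclib and ruxolitinib, IGFBP5 made up 43.83%, 25.89%, 19.07% and 26.59% of that sum and IGFBP3 14.02%, 17.25%, 31.76% and 13.97%. The IGFBP3 share was higher in palbociclib libraries (31.31% to 32.15%) than in any other library (at most 17.78%). IGFBP4 held 23.23%, 29.33%, 24.29% and 31.22%, IGFBP7 15.67%, 22.52%, 22.43% and 23.20%, IGFBP6 between 2.41% and 4.93%, and IGFBP2 at most 0.14%. Shares of a sum are not independent: a rise of 1 carrier lowers the share of the rest.

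**Figure D4:**
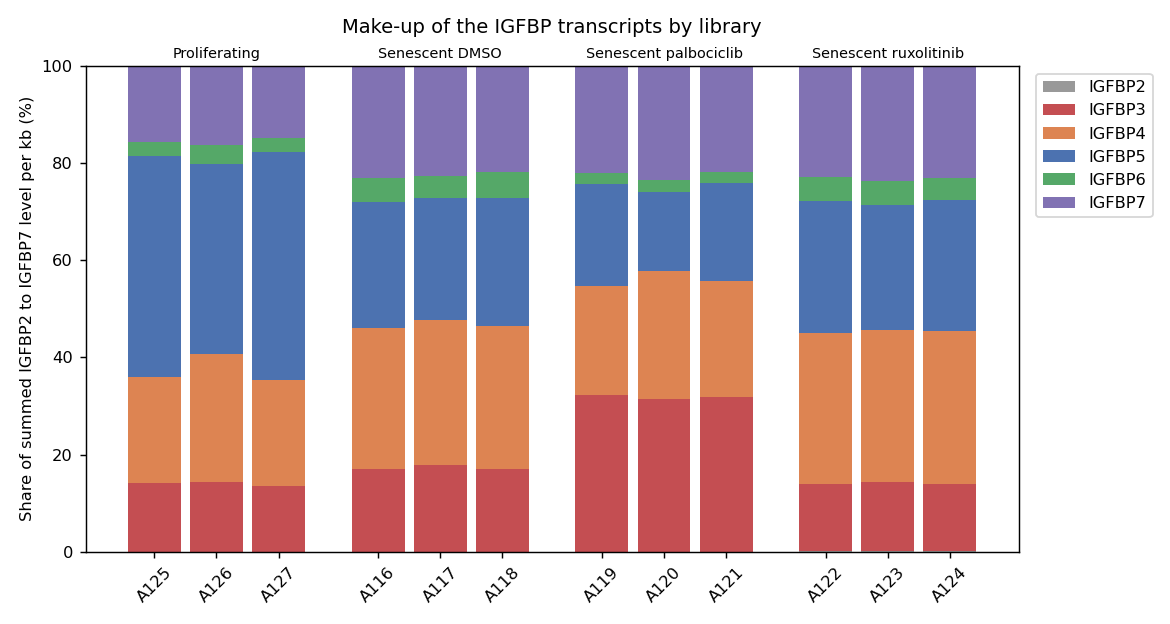
Share of each carrier (percent, stacked to 100) in the summed per-kilobase level of IGFBP2 to IGFBP7, 1 bar per library, grouped by condition. IGFBP5 is the largest block in the 3 proliferating libraries and IGFBP3 in the 3 palbociclib libraries, and IGFBP2, at most 0.14% as a group mean, is too thin to see.

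Transcripts of the inhibitors and their proteases were set side by side in ratios per kilobase, chosen after the values were seen and given as a description. Per unit of PAPPA plus PAPPA2 there were 52.2 ± 8.20 units of STC1 plus STC2 in proliferating cells (SD, n = 3), and 9.51 ± 0.414, 10.7 ± 2.09 and 9.75 ± 0.339 in the DMSO, palbociclib and ruxolitinib groups. The 3 irradiated groups overlap in this ratio. Within the inhibitor pair, STC1 per STC2 was 0.668 ± 0.0979, 1.15 ± 0.0268, 0.414 ± 0.0278 and 1.25 ± 0.0163 in the same order. Within the protease pair, PAPPA2 per 100 of PAPPA came to 1.97 ± 0.74, 0.768 ± 0.0726, 4.78 ± 0.512 and 0.417 ± 0.0385, again in that order. Every palbociclib library (4.23 to 5.25) lay above every other library in that ratio, in which the choice of PAPPA2 had a part.

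Other genes of the IGF pathway were taken from a list of ligands, receptors, other carriers, proteases, RNA-binding proteins and signalling genes. Of these, 21 had a mean of at least 10, among them IGFBP1, for which no test is given. The ligand IGF1 was barely detected, with group means from 1.72 to 4.26, and was not tested. IGF2, the fetal ligand, had 299.9, 259.3 and 298.3 with DMSO and 180.4, 94.1 and 172.3 with palbociclib. The palbociclib libraries were all lower, with A120 the lowest, and IGF2 fell by 0.99 on the log2 scale (SE 0.19, adjusted p = 0.000583), or by 0.69 without A120 and A126 (adjusted p = 1.02e-05). It was not called for DMSO against proliferating cells (-0.31, adjusted p = 0.158, but -0.42 and 0.0011 without A120 and A126) or for ruxolitinib against DMSO (-0.16, adjusted p = 0.763).

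All 3 receptors were called in senescent DMSO cells against proliferating cells, where 72.4% of all tested genes were called. IGF1R, the signalling receptor, fell by 0.57 and INSR, the insulin receptor, by 0.68 on the log2 scale, while IGF2R, which takes IGF2 up for degradation, rose by 0.47. With palbociclib, IGF1R was called against DMSO (0.19, adjusted p = 0.0263), and its difference turned to -0.04 (adjusted p = 0.621) with libraries scaled to the same total. IGF2R was not called (0.20), but it was without A120 and A126 (0.32, adjusted p = 1.22e-06). Among the other carriers, IGFBP1 had at most 3 reads in each proliferating library and 17.3 to 27.2 normalized counts with DMSO, at least 7.35-fold higher against a floor of 3 reads per library. The palbociclib libraries had 1.11, 5.47 and 6.22, on 1 to 7 reads, below every DMSO library. IGFBP1 averaged 6.44 without the DMSO group and so passed the filter of 10 only through the group where it is high, and no test of it is given. IGFALS, which joins IGFBP3 and IGF in the ternary complex of blood, averaged at most 4.96 in any group and was not tested.

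Among other proteases that cut IGF carriers, HTRA1, ADAM9 and ADAM12 were tested. All 3 rose with palbociclib relative to DMSO, by 0.60 (SE 0.07, adjusted p = 4.54e-06), 0.36 (SE 0.11, adjusted p = 0.0118) and 0.48 (SE 0.12, adjusted p = 0.00504). Of all tested genes, 26.0% were called higher in this comparison. With libraries scaled to the same total ADAM9 (0.14, adjusted p = 0.276) and ADAM12 (0.25, adjusted p = 0.0881) were not called. In senescent DMSO cells against proliferating cells, ADAM9 rose by 0.29 (0.14 without A120 and A126) and ADAM12 fell by 0.56. HTRA1 was not called (-0.11, or -0.06 without A120 and A126). PRG2, whose proform binds and inhibits PAPPA, averaged 0.32, 7.61, 1.10 and 6.00 in proliferating, DMSO, palbociclib and ruxolitinib cells, too low to be tested. Of the 3 proteins that bind IGF2 mRNA, IGF2BP1 and IGF2BP2 fell with DMSO against proliferating cells, by 0.57 and 0.77. Of all tested genes, 39.3% were called lower there. In the same comparison IGF2BP3 was not called (0.13, limma adjusted p = 0.133), nor by DESeq2 (0.17) or without A120 and A126 (0.05). It was called higher by edgeR (0.17, adjusted p = 0.0429) and by limma with the same upper quartile (0.29, adjusted p = 0.00192) or total (0.36, adjusted p = 0.000281). IGF2BP1 was lower again with palbociclib against DMSO (-0.22, adjusted p = 0.0135). IGF2BP2 and IGF2BP3 were called higher with palbociclib only when A120 and A126 were left out (both 0.23).

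Of the 10 signalling genes, 4 rose and 4 fell with DMSO against proliferating cells, where 72.4% of all tested genes were called. With the same total 5 were called higher and 2 lower: GRB10 (-0.11) and AKT2 (-0.08) lost their calls and FOXO3 gained one (0.14). Without A120 and A126 PIK3R1 was not called (0.18, adjusted p = 0.0745) and PIK3CA was (-0.20, adjusted p = 0.0121). IRS2, an adaptor of the receptor, rose by 0.90 and its relative IRS1 fell by 0.53. With palbociclib against DMSO 1 rose (AKT1, the kinase, by 0.27) and 3 fell: IRS2 by 0.57, FOXO1 by 1.5 and PIK3R1 by 0.29. Of all tested genes, 48.3% were called in this comparison. With the same total 0 of the 10 were called higher and 7 lower, AKT1 being at 0.04, under a scaling that lowers the median of all tested genes in this comparison by 0.225. Without A120 and A126 PIK3CA was called as well (0.27, adjusted p = 0.0028). FOXO1, a transcription factor that AKT keeps out of the nucleus, rests on low values, with 23.8, 24.9 and 22.0 with DMSO and 14.4, 3.28 and 8.88 with palbociclib. Its decrease was 0.99 without A120 and A126 (adjusted p = 0.0498). Outside IGFBP1, the tested pathway genes were not called for ruxolitinib against DMSO by limma, edgeR or DESeq2. Of these genes, 2 had an unadjusted limma p under 0.05. In this comparison limma called 4.52% of all tested genes.

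**Figure D5:**
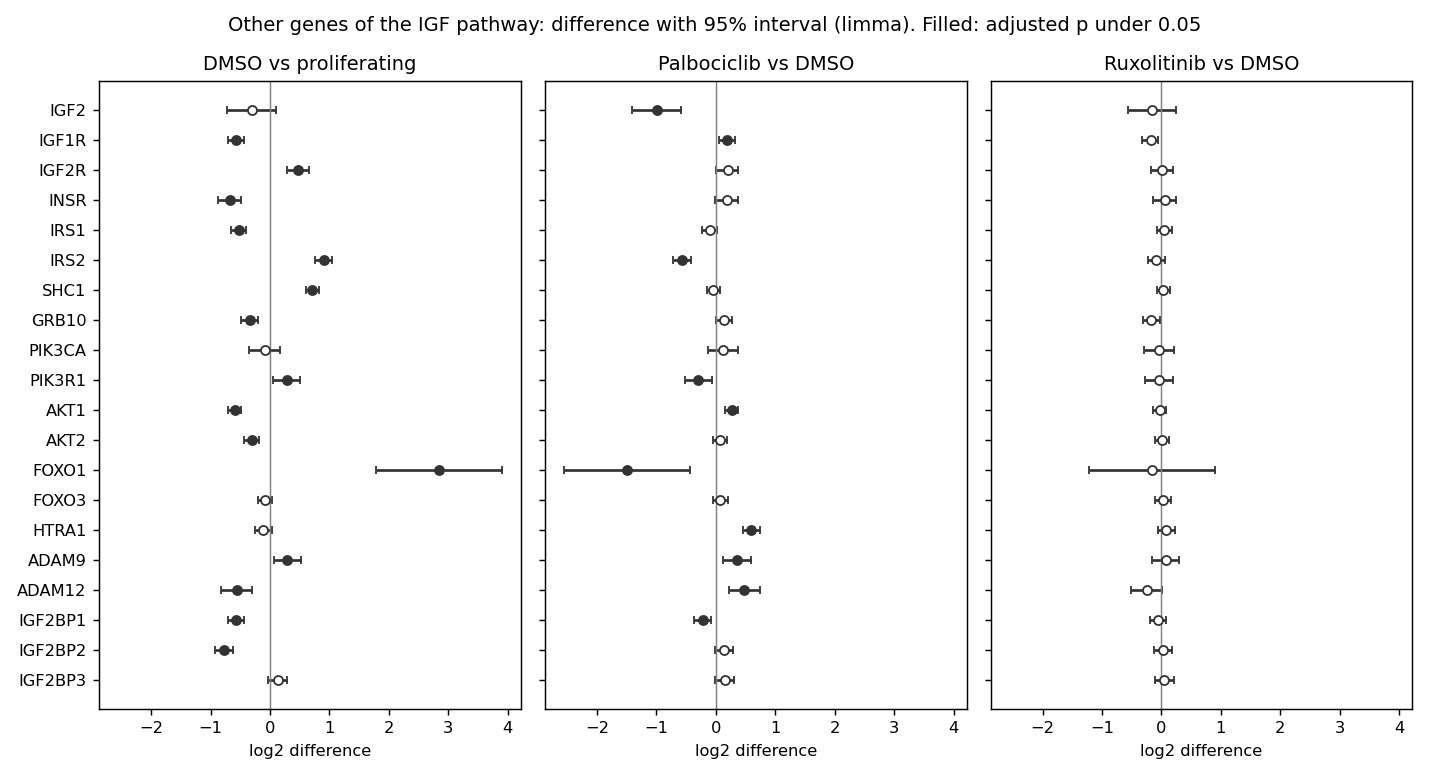
Log2 difference with its 95% interval from limma for the tested genes of the IGF pathway outside the 10 described, without IGFBP1, in 3 comparisons, with filled circles called at an adjusted p under 0.05. IGF2, IRS2 and FOXO1 lie to the left of 0 for palbociclib against DMSO, and all circles are open for ruxolitinib against DMSO.

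For each of the 10 genes, the 3 most similar patterns were taken by Pearson's r of log2(normalized count + 1) over the 12 libraries, among 9581 genes that averaged at least 100 in some group. The libraries fall into 4 groups, so r mostly reflects 4 group levels, and the best of 9581 is high by selection. PAPPA was most like RRM2B, a ribonucleotide reductase subunit (r = 0.997), with group means of 675.0, 3398, 2448 and 3421 in proliferating, DMSO, palbociclib and ruxolitinib cells, and then FAS, the death receptor, and ATOSA (both 0.994). STC1 was most like CYP1B1, a cytochrome P450 (0.99), COL4A6, a basement membrane collagen (0.99), and GDNF, a neurotrophic factor (0.986). CYP1B1 averaged 96.6, 364.7, 96.8 and 331.7 in the same order of groups. IGFBP3 was most like ADAMTS8, a secreted metalloproteinase (0.995), with 79.1, 127.4, 363.9 and 101.3, then CLIP4 (0.991) and EFEMP1, a matrix protein (0.99). PAPPA2 was most like MGLL, monoglyceride lipase (0.980), DKK3 and PHLDB1 (both 0.978).

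The remaining genes followed other patterns. IGFBP4 was most like SELENOW (0.999), IGFBP7 like PEA15 and MSMO1 (both 0.997), and STC2 like CYB561 and ZFAND3 (both 0.991). SELENOW, PEA15 and CYB561 all had their highest group mean with palbociclib and their lowest in proliferating cells. IGFBP5 was most like DCUN1D4 (0.983), whose means were 1094.6, 909.6, 1062.4 and 911.5. IGFBP6 was most like PBXIP1 (0.983) and IGFBP2 like DPYSL4 (0.956). PBXIP1 and DPYSL4 had their highest group mean with ruxolitinib, while IGFBP6 itself averaged 2333.3 with DMSO and 2289.5 with ruxolitinib.

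Replicate spread differed between genes and groups. Coefficients of variation of the 10 genes reached 20.5% with palbociclib (IGFBP2) and 23.0% in proliferating cells (PAPPA2), and PAPPA had 20.0% and 19.1% in these groups. With DMSO and ruxolitinib PAPPA varied by 5.9% and 3.6%. In the palbociclib group A120 was the highest library for IGFBP2, IGFBP4, IGFBP6 and IGFBP7 and the lowest for IGFBP5, PAPPA, PAPPA2 and STC1. In the proliferating group A126 was the highest library for IGFBP3, IGFBP4, IGFBP6, IGFBP7, PAPPA2 and STC2 and the lowest for IGFBP5, PAPPA and STC1. With both libraries left out, an alternative added after the data were seen, 8 of the 9 genes tested were called for palbociclib against DMSO. In this comparison 5432 of all 11242 tested genes were called in the main fit (48.3%). Over the main fit and its 16 alternatives, including this alternative, the number of genes called was 4516 to 6116. IGFBP2 and IGFBP5 are neighbours on chromosome 2 in hg38, at chr2:216632828-216664436 on the plus strand and chr2:216672105-216695549 on the minus strand. In the main fit they did not move together: IGFBP2 rose and IGFBP5 fell in senescent DMSO cells, and IGFBP5, unlike IGFBP2, was called for palbociclib against DMSO. Both IGFBP5 calls were lost with libraries scaled to the same total (-0.06 and 0.03). The difference between the genes was not tested.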

How the data were processed

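The measurements are poly(A) RNA-seq libraries of IMR90 cells, 3 in each of 4 groups. Per the submitters' processing notes, Trimmomatic 0.38.1, HISAT2 2.2.1, featureCounts 2.0.3, FastQC 0.74, MultiQC and DESeq2 2.11.40.8 were used with hg38. Strand setting and annotation are not given in the sources used here. The deposited values are a signal that is never negative, normalized counts per Entrez gene. Nonzero values of each library came in whole steps of 1 read (160380 of 160380 values, 100%, within 0.01), so whole reads were recovered. The table ends at Entrez number 140467, and genes beyond it were not analysed here. Columns name the group and a library number, which is used here, and give no replicate number.

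Tests used R 4.3.3 and limma 3.58.1 with a mean-variance trend. The response was log2(normalized count + 1), with 4 group means over 12 libraries and Benjamini-Hochberg adjustment over 11242 genes with a mean of at least 10. The log2 scale understates changes of low genes. PAPPA2 was left out of tests with palbociclib libraries and kept in the others, including those with DMSO libraries, whose values had a part in its choice. Levels per kilobase divide by the union of exons in GENCODE release 44. The 10 genes and all lists were chosen with earlier results of these data known. One listed pathway gene is not reported here. Named genes are the 10, the pathway and marker lists, and the 3 most similar genes of each. Alternatives were pseudocounts of 0.1 and 5, no filter, a minimum mean of 50, equal totals or equal upper quartiles in all libraries, only the 2 groups compared, each library left out, and edgeR 4.0.16 and DESeq2 1.42.0 on the recovered reads. Overlapping and antisense genes cannot be separated without the strand setting.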

Additional observations from a re-analysis of the deposited data

How the results depend on the processing

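Of 944 recomputed differences of the 10 genes, 888 stayed the same, 38 kept direction but lost the call, 1 gained it, 15 changed sign and 2 moved. Staying the same means that direction and call were kept. PAPPA2 has no call in comparisons with palbociclib. There it means a change smaller than the gene's residual SD in the main fit, and moved means a change of at least that size. For ruxolitinib against DMSO, 508 genes were called, 1831 in a fit of only these 2 groups and 261 to 295 when 1 library was left out, which left 1 to 2 of the 3 called members. One called gene changed sign: STC2 for palbociclib against DMSO, -0.09 with the same total. The other sign changes were of differences that were not called. For palbociclib against DMSO, IGFBP2 ranged from -0.20 to 0.10 when 1 library was left out (0.00 without A118, 0.10 without A119). For ruxolitinib against DMSO, IGFBP5 was 0.00 with the same total, and with 1 library left out IGFBP6 ranged from -0.09 to 0.03 and IGFBP7 from -0.01 (without A118) to 0.05. For palbociclib against proliferating cells, IGFBP5 was 0.10 with the same upper quartile, 0.00 by edgeR, 0.01 by DESeq2, and -0.11 to 0.07 with 1 library left out (0.00 without A125, 0.02 without A127), and STC1 was 0.09 with the same upper quartile and -0.14 to 0.01 with 1 library left out. PAPPA2 moved in that comparison to 3.35 with a pseudocount of 5 and to 4.12 without A120 and A126, and it has no value at a mean of at least 50. For palbociclib against ruxolitinib IGFBP5 lost its call in 8 and IGFBP6 in 4 of 16 alternatives, and PAPPA2 for ruxolitinib against DMSO in 7 of 14. STC2 for palbociclib against DMSO lost its call with the same direction in 6 of 16. It was also not called in the fit where it changed sign. The cause of these changes was not tested. Depth limits PAPPA2 most, with 6 to 34 reads per library in proliferating and DMSO cells. No paired analysis was possible because the columns carry no replicate numbers.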
